A study of Mus musculus with 8 samples.

Results

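The genes described here are 33 genes of regulated cell death, taken from the 55450 genes of the count table by gene symbol. They comprise the BCL2 family (5 guardians, 2 effectors and 6 BH3-only genes), 5 genes of the intrinsic caspase pathway, 3 of the death receptor complex, 3 inhibitor of apoptosis genes, 2 of necroptosis, 5 of pyroptosis, the paraptosis inhibitor Pdcd6ip (ALIX) and the ferroptosis inhibitor Gpx4. RNA sequencing measured their transcripts in 8 libraries from tumours of B16F10, a melanoma line of C57BL6 mice. The 4 PERK KO libraries (numbered 1 to 4) came from tumours grown from B16F10 cells lacking the stress kinase PERK, and the 4 Scramble libraries (numbered 2 to 5) from tumours grown from Scramble B16F10 cells. All hosts were wild-type C57BL6 mice, injected under the skin at 6 weeks of age with 150000 cells, and tumours were taken on day 17. Cells were then enriched for c-Kit with magnetic beads. PERK was thus removed from the injected cells and not from the host. Whether the knockout line was 1 clone is not given in the sources used here.

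The labels name the cells c-Kit-positive precursors, and the libraries also held a large share of melanoma RNA. The summed level of 12 melanocyte markers was 16663 to 20307 counts scaled to library size (CPM) in PERK KO libraries and 25173 to 25776 CPM in Scramble libraries. The 12 progenitor markers summed to 276 to 452 CPM in PERK KO and 249 to 322 CPM in Scramble, most of it Kit itself at 139 to 211 CPM in PERK KO and 170 to 223 CPM in Scramble. Of 9 tested, Ly6a, Gata2 and Lmo2 were higher in PERK KO and none lower, and of the 3 not tested Mpo and Prtn3 were at 0 in every library. Eif2ak3, which encodes PERK, fell in PERK KO libraries (log2 change -1.97 ± 0.31 SE, edgeR adjusted p = 0.00371). It stood at 7.73 to 22.7 CPM there and at 48.3 to 59.2 CPM in Scramble libraries. Libraries held 29006949 to 47530393 counts in PERK KO and 44950033 to 56697163 in Scramble, and mitochondrially encoded genes took 5.22 to 19.2% of the counts in PERK KO and 3.71 to 4.50% in Scramble.

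Cells die by several gene programmes. In intrinsic apoptosis, BH3-only proteins oppose the BCL2 guardians and free the effectors to open the outer mitochondrial membrane, after which APAF1 and caspase proteins dismantle the cell. Pyroptosis runs through inflammatory caspase proteins that cut gasdermin D into a membrane pore, necroptosis through RIPK1, RIPK3 and the pore-forming MLKL, and paraptosis through swelling of the endoplasmic reticulum and mitochondria, which ALIX restrains. Inflammasome genes are known from myeloid cells, though not from these alone.

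Of the 33 members, 6 passed the test. In PERK KO libraries 5 of them were higher, namely the pyroptosis genes Casp4, Casp1 and Gsdmd, the BH3-only gene Bcl2l11 (BIM) and the death receptor kinase gene Ripk1. The guardian gene Bcl2 was lower. Only 30 members passed the filter on low counts and were tested, Bcl2a1b, Bik and Hrk being too low. The other 24 tested members were not called at a Benjamini-Hochberg adjusted p under 0.05 in edgeR's quasi-likelihood test, which was fitted on and adjusted over 16662 genes. Among all tested genes 13.8% were called, 7.66% as higher and 6.13% as lower in PERK KO. An unadjusted p under 0.05 in edgeR was reached by 4448 of the 16662 genes and by 12 of the 30 tested members. The members' median log2 change was 0.03, with 15 positive and 15 negative values, beside a median of -0.02 over all tested genes. The p-values measure the spread between these libraries. Every library is labelled with a separate tumour, but the labels do not tie tumours to individual mice, so the spread may be less than that between animals. In bulk RNA, fewer cells of a type and less RNA per cell cannot be told apart.

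Groups of 4 libraries did not overlap for 9 of the 30 tested members. In 8 of these, every PERK KO library was above every Scramble library, namely Casp4, Casp1, Gsdmd, Nlrp3, Casp12, Bcl2l11, Ripk1 and Mlkl. For Gpx4 every PERK KO library was below every Scramble library. Over all tested genes, groups did not overlap for 21.3%, with 10.2% higher and 11.1% lower in PERK KO.

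**Figure D1:**
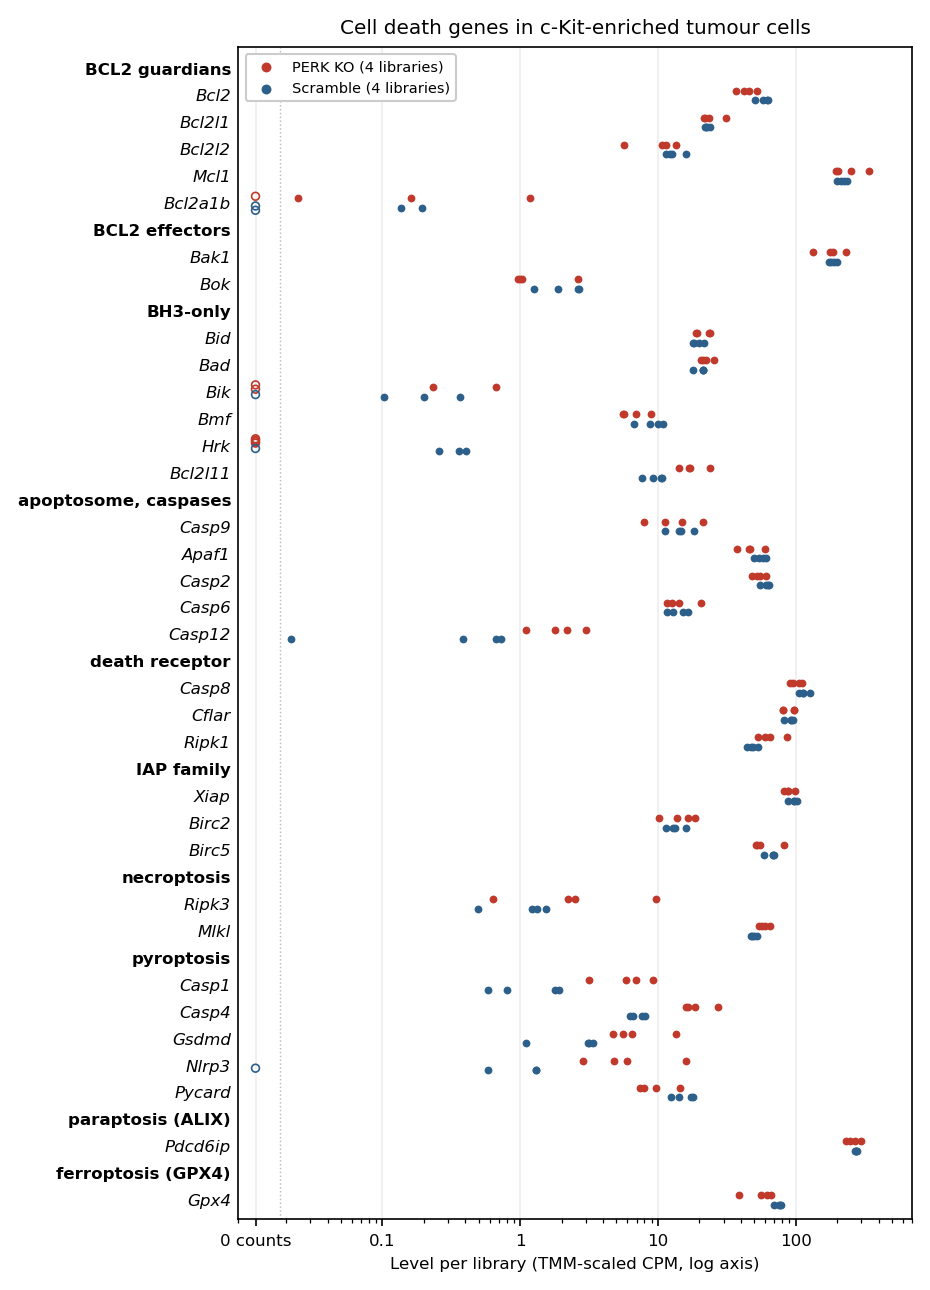
Level of each of the 33 members in each library (TMM-scaled CPM, log axis), grouped by death pathway, with PERK KO points above Scramble points on each line and open points at the left for 0 counts. The pyroptosis genes Casp1, Casp4, Gsdmd and Nlrp3 have all 4 PERK KO points to the right of all 4 Scramble points, while Pdcd6ip and the death receptor gene Casp8 overlap.

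The plot of levels shows overlapping groups for most members. Per kilobase of exon, the most abundant member was the effector gene Bak1, at 75.9 ± 16.7 CPM per kb in PERK KO and 77.1 ± 4.75 CPM per kb in Scramble (SD, n = 4 each). The guardian gene Mcl1 followed at 72.6 ± 19.9 CPM per kb in PERK KO and 63.7 ± 4.38 CPM per kb in Scramble. The ranges of these neighbours overlapped in PERK KO. In Scramble every Bak1 value (72.2 to 83.1 CPM per kb) was above every Mcl1 value (58.2 to 68.5 CPM per kb). Per kilobase, Casp1 ranked 18 of 33 in PERK KO and 27 in Scramble, Casp4 ranked 15 in PERK KO and 22 in Scramble, and Gsdmd ranked 20 in PERK KO and 26 in Scramble. Bcl2 ranked 17 in PERK KO and 12 in Scramble.

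Pyroptosis held the most calls, with 3 of its 5 members higher and none lower, and its median log2 change was 1.5. Casp4 encodes the mouse caspase that senses cytosolic lipopolysaccharide. Its level was 18.6, 16.5, 16 and 27.5 CPM in PERK KO libraries 1 to 4, against 6.23, 6.56, 8.08 and 7.62 CPM in Scramble libraries 2 to 5. Every PERK KO library was higher than every Scramble library, and the lowest PERK KO value lay well clear of the highest Scramble value. Casp4 rose by a log2 change of 1.46 ± 0.21 SE (edgeR adjusted p = 0.00165). It was the only member called under all 19 other settings tried, with log2 changes of 1.26 to 1.70.

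Casp1 encodes the caspase that inflammasomes activate to cut pro-interleukins and gasdermin D. It stood at 3.18, 6.90, 5.92 and 9.20 CPM in PERK KO libraries 1 to 4, against 1.90, 0.584, 0.801 and 1.80 CPM in Scramble libraries 2 to 5. The groups did not overlap, and library 1 was the lowest of PERK KO. Casp1 rose by a log2 change of 2.31 ± 0.48 SE (edgeR adjusted p = 0.00994), and was called when any 1 library was left out but not without both libraries numbered 4 (adjusted p = 0.0623). Gsdmd, the gene of the pore-forming substrate, stood at 5.63, 6.54, 4.71 and 13.5 CPM in PERK KO, against 3.39, 1.10, 3.16 and 3.10 CPM in Scramble. The groups did not overlap, and PERK KO library 4 was the highest by far. Gsdmd rose by a log2 change of 1.5 ± 0.44 SE (edgeR adjusted p = 0.0404). Without PERK KO library 4 it was no longer called (log2 change 1.06, edgeR adjusted p = 0.118). The call was also lost without PERK KO library 2 (adjusted p = 0.0589) or without Scramble library 2, 3, 4 or 5 (adjusted p = 0.0729 to 0.096).

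Nlrp3 and Pycard, the sensor and the adaptor of the inflammasome, had changes of opposite sign and neither was called. Nlrp3 stood at 4.82, 5.93, 2.86 and 16 CPM in PERK KO, against 1.3, 0.584, 0 and 1.3 CPM in Scramble. All 4 PERK KO levels exceeded all 4 Scramble levels, PERK KO library 4 was the highest and Scramble library 4 had no count. Its log2 change was 3.21 ± 0.96 SE (edgeR adjusted p = 0.0536). Nlrp3 passed the threshold without PERK KO library 3 (adjusted p = 0.04) or without Scramble library 4 (adjusted p = 0.021), in DESeq2 (adjusted p = 0.00171), and in 7 of 19 other settings in all. Without PERK KO library 4 its log2 change was 2.5 (adjusted p = 0.111), and without both libraries numbered 4 it was 2.09 (adjusted p = 0.0364). Pycard stood at 7.87, 14.4, 7.36 and 9.72 CPM in PERK KO, against 14.2, 12.4, 17.4 and 18.1 CPM in Scramble. PERK KO library 2 lay within the Scramble range, and the other PERK KO libraries lay below it. The log2 change of Pycard was -0.66 ± 0.23 SE (edgeR adjusted p = 0.0877), and without PERK KO library 2 it was called lower (adjusted p = 0.0209). Within a library, Casp4 over Pycard was 2.13 ± 0.713 in PERK KO and 0.463 ± 0.0467 in Scramble (SD, n = 4 each), and no library of either group reached the range of the other.

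The 3 pyroptosis windows below are shown because the groups did not overlap for Casp4, Casp1 and Nlrp3 while the motifs upstream of them differ. Each is the 250 bases before a transcript start in RefSeq (GRCm38.p6, + strand), printed 5′ to 3′. Capitals mark matches to the searched motifs, which are the kappaB consensus in Casp4 and Nlrp3, TGATGNAA in Nlrp3, and CACGTG in Casp1. Casp1 is at chr9:5298267-5298516, Casp4 at chr9:5308599-5308848 and Nlrp3 at chr11:59541319-59541568.
Casp1: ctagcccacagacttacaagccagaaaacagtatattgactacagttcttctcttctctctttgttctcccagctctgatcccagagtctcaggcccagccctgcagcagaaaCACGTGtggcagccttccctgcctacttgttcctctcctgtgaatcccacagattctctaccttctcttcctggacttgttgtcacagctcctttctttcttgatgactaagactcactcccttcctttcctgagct
Casp4: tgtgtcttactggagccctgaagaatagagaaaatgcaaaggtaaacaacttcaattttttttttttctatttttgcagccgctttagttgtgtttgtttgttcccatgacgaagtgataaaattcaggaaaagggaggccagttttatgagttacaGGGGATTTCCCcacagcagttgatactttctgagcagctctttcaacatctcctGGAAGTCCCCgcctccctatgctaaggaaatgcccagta
Nlrp3: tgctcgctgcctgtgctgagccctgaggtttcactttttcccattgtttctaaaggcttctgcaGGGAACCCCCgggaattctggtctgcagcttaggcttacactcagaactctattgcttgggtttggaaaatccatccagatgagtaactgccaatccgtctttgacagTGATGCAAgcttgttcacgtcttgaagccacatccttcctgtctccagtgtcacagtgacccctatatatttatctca

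A match is a description of letters only. Both strands were searched in 46 windows of the 31 members that RefSeq listed, Bik and Gsdmd having none there. The kappaB consensus was found in 7.25% of 32851 mouse windows of the same length. It was found in 5 of the 46 member windows, from 4 members, namely Casp4, Nlrp3, Bcl2l1 and Birc5. The Casp4 windows overlap and hold the same sites, while another Nlrp3 window and other Bcl2l1 windows held no match. The Casp4 window shown held 3 matches, of which those in GGGGATTTCCC overlap each other. TGATGNAA was found in 3.45% of all windows and in 3 members (Nlrp3, Bcl2a1b and Hrk), and CACGTG in 6.02% and in 3 members (Casp1, Pdcd6ip and Ripk3). TTCNNNGAA occurred in 7.02% of all windows and in 2 members, Casp12 and Ripk1, with 2 matches in each. TGACGTCA occurred in 1.55% of all windows and in Birc2. Each of these motifs other than the kappaB consensus was in 1 window of each member named. No member held GAAA repeated after 2 bases, found in 2.98% of windows, or CCAAT followed after 9 bases by CCACG, found in 0.113%.

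Casp1, Casp4 and Casp12 are neighbours on the + strand of mouse chromosome 9 (mm10, GENCODE M21), at 5298517 to 5307265, 5308828 to 5336783 and 5345430 to 5373032. Casp12 encodes a caspase linked to the endoplasmic reticulum in rodents. It stood at 1.11, 1.78, 3.02 and 2.18 CPM in PERK KO, against 0.670, 0.721, 0.0217 and 0.387 CPM in Scramble. Every PERK KO library was above the Scramble range, and Scramble library 4 was at 1 count. Casp12 was not called (log2 change 2.16 ± 0.88 SE, edgeR adjusted p = 0.136). In DESeq2 its adjusted p was 0.0349. Gsdmd lies on chromosome 15 (75862327 to 75867408, + strand), Nlrp3 on chromosome 11 (59541568 to 59566956, + strand) and Pycard on chromosome 7 (127989708 to 127993867, - strand).

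Leukocyte markers moved with these genes. Of 20 pan-leukocyte markers, 18 were called higher in PERK KO and none lower, with a median log2 change of 2.71, and their summed level was 642 to 1720 CPM in PERK KO and 312 to 412 CPM in Scramble. Among 12 monocyte and macrophage markers, all 12 were higher, at a summed 230 to 740 CPM in PERK KO and 46.0 to 111 CPM in Scramble. Of 10 dendritic cell markers, 9 were tested and 7 were higher, summing to 160 to 914 CPM in PERK KO and 15.4 to 39.2 CPM in Scramble. Of 12 mast cell markers, 11 were higher, summing to 720 to 3191 CPM in PERK KO and 23.5 to 170 CPM in Scramble. Of 10 neutrophil markers, 4 were tested and 1 was higher, the sums were 2.34 to 13.5 CPM in PERK KO and 0.580 to 2.85 CPM in Scramble, and Ly6g, Ngp and Camp were at 0 in all libraries. Of 12 melanocyte markers, 8 were lower and none higher. Epithelial markers were also higher (9 of 10), summing to 95.0 to 257 CPM in PERK KO and 4.98 to 9.89 CPM in Scramble. None of 5 tested T and natural killer cell markers was called in edgeR (2 at an unadjusted p under 0.05), and 2 of 6 tested B cell markers were higher. The part of these cell types in the pyroptosis changes was not tested.

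Levels relative to Ptprc, the pan-leukocyte surface phosphatase CD45, are given beside that. Ptprc stood at 20.9, 43.3, 32.8 and 115 CPM in PERK KO libraries, against 8.82, 6.99, 3.42 and 9.67 CPM in Scramble libraries. Casp1 over Ptprc was 0.143 ± 0.0438 in PERK KO and 0.18 ± 0.0672 in Scramble (SD, n = 4 each). Casp4 over Ptprc was 0.5 ± 0.280 in PERK KO and 1.20 ± 0.781 in Scramble, and Gsdmd over Ptprc was 0.170 ± 0.0675 in PERK KO and 0.446 ± 0.333 in Scramble (SD, n = 4 each). The groups overlapped for these 3 ratios and for Nlrp3, while Pycard, Ripk1, Mlkl, Ripk3 and Bcl2l11 were lower per Ptprc in every PERK KO library than in any Scramble library. Ptprc itself was higher in every PERK KO library, so a gene that rises less than Ptprc tends to be lower per Ptprc. Ripk1, Mlkl and Bcl2l11 were themselves higher in every PERK KO library than in any Scramble library. No test was made on these ratios.

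**Figure D2:**
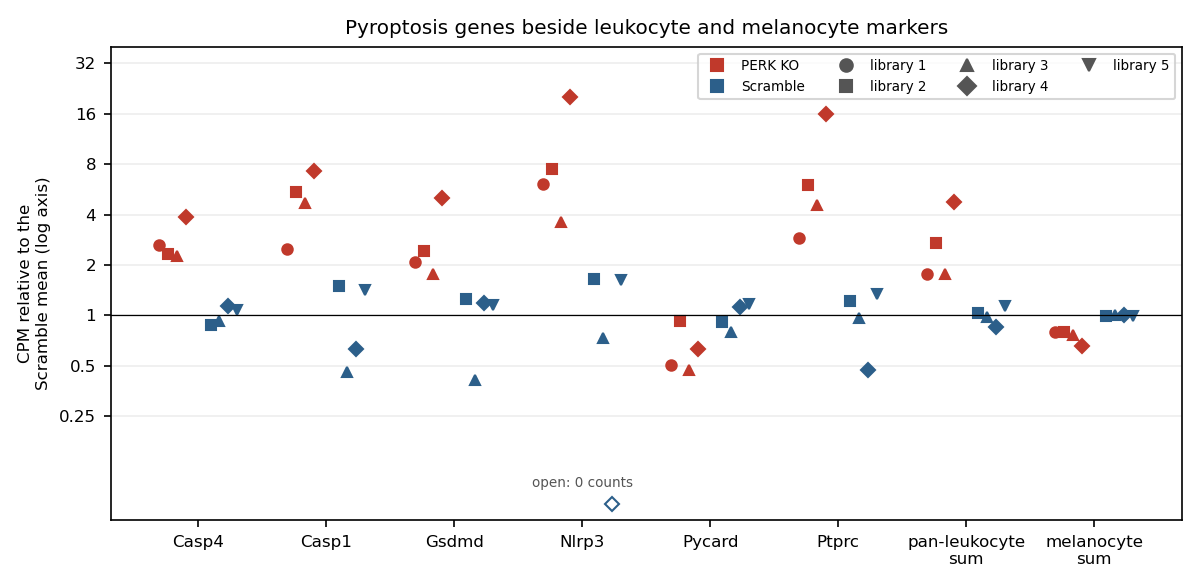
CPM of the 5 pyroptosis genes, of Ptprc and of the summed pan-leukocyte and melanocyte markers in each library, divided by the Scramble mean (log axis, PERK KO left of Scramble, symbols giving the library number, the open symbol a library with 0 counts). PERK KO library 4 is the highest of its group for Casp4, Casp1, Gsdmd, Nlrp3 and Ptprc, and melanocyte sums are lower in every PERK KO library.

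The plot of pyroptosis genes beside the markers shows that PERK KO library 4, with the highest Ptprc level, also had the highest level of Casp4, Casp1, Gsdmd and Nlrp3. Pycard does not follow that order, its highest PERK KO level being in library 2.

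Other genes of pyroptosis, from a list of 22, were present by symbol in 21 cases and tested in 16. They were higher in 7 cases and lower in 0. Il1b, a pro-inflammatory cytokine released through gasdermin pores, stood at 27.5, 24.1, 13.7 and 109 CPM in PERK KO, against 4.24, 3.59, 1.17 and 3.39 CPM in Scramble. PERK KO and Scramble libraries were fully apart and PERK KO library 4 was the highest. Il1b rose by a log2 change of 3.81 ± 0.76 SE (edgeR adjusted p = 0.0162), was 2.81 without PERK KO library 4, and lost its call without Scramble library 3 (adjusted p = 0.0614) or 5 (adjusted p = 0.0511). The receptor antagonist gene Il1rn rose by 2.71 ± 0.49 SE (edgeR adjusted p = 0.00662) and the cytokine gene Il18 by 1.21 ± 0.29 SE (edgeR adjusted p = 0.0168). Il18 lost its call without Scramble library 2, 3 or 4 (adjusted p = 0.0521 to 0.0545). Gbp2, a guanylate-binding protein gene induced by interferon, rose by 1.72 ± 0.41 SE (edgeR adjusted p = 0.0173) and lost its call without Scramble library 3 (adjusted p = 0.0592) or 4 (adjusted p = 0.0528). The other called genes of the list, named after their values were seen, were Aim2, Nlrp1b and Ninj1, each of which lost its call without at least 1 library.

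Neither of the 2 necroptosis members was called in edgeR, and both had an unadjusted p under 0.05, as did 4448 of all 16662 tested genes. Mlkl, the executioner, stood at 56.6, 54.5, 60.2 and 65.7 CPM in PERK KO, against 49.8, 47.7, 48.2 and 52.6 CPM in Scramble. Values of the 2 groups did not cross, with a narrow gap. Its log2 change was 0.26 ± 0.09 SE (edgeR adjusted p = 0.0905). Mlkl passed in DESeq2 (adjusted p = 0.0207) and under upper-quartile scaling (adjusted p = 0.0417). Ripk3, the kinase that activates MLKL, stood at 0.636, 2.49, 2.23 and 9.67 CPM in PERK KO, against 1.54, 1.22, 0.498 and 1.32 CPM in Scramble. PERK KO library 1 lay within the Scramble range and library 4 far above it. The log2 change of Ripk3 was 1.71 ± 0.73 SE (edgeR adjusted p = 0.153), and 0.64 without PERK KO library 4. Of 7 other necroptosis genes tested, Zbp1 was higher and none lower. Zbp1, a sensor of Z-form nucleic acids upstream of RIPK3, had a log2 change of 3.23 ± 0.75 SE (edgeR adjusted p = 0.0203). It was 2.26 without PERK KO library 4 and lost its call without Scramble library 3 (adjusted p = 0.0641) or 5 (adjusted p = 0.0696).

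The guardians, which hold the effectors in check, held 1 call among 4 tested. Bcl2 was the member called lower, at 45.7, 37.2, 42.2 and 52.4 CPM in PERK KO, against 58.0, 62.3, 50.8 and 63.5 CPM in Scramble. The groups overlapped through PERK KO library 4 and Scramble library 4. Bcl2 fell by 0.40 in log2 units (± 0.12 SE, edgeR adjusted p = 0.0469). That call was lost without PERK KO library 1, 2 or 3 or Scramble library 2, 3 or 5, and under every other scaling tried, with the adjusted p at 0.0775 under RLE factors. Its exons overlap those of D630008O14Rik on the other strand, which had 0 counts in every library. Mcl1 stood at 251, 196, 202 and 343 CPM in PERK KO, against 223, 234, 199 and 214 CPM in Scramble. Its groups overlapped and it was not called (log2 change 0.19 ± 0.16 SE, edgeR adjusted p = 0.514), and without PERK KO library 4 the value was -0.01. Bcl2l1 (BCL-XL) had 22.1, 23.4, 21.6 and 31.0 CPM in PERK KO and 22.6, 21.8, 23.7 and 22.2 CPM in Scramble, and Bcl2l2 (BCL-W) 5.69, 13.6, 11.5 and 10.7 CPM in PERK KO and 15.9, 11.5, 12.3 and 12.7 CPM in Scramble. Both overlapped and neither was called (edgeR adjusted p = 0.677 and 0.452).

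The 2 effectors that open the outer membrane were not called in edgeR or DESeq2, with 0 at an unadjusted p under 0.05 in edgeR. Bak1 stood at 178, 233, 135 and 186 CPM in PERK KO, against 180, 174, 200 and 189 CPM in Scramble. The log2 change of Bak1 was -0.02 ± 0.14 SE (edgeR adjusted p = 0.947), and it turned positive, at 0.02, under RLE factors, and likewise under upper-quartile factors and in DESeq2. Bok, at 0.962 to 2.65 CPM in PERK KO and 1.25 to 2.66 CPM in Scramble, had a log2 change of -0.58 ± 0.56 SE (edgeR adjusted p = 0.591).

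Among the BH3-only members, which start intrinsic apoptosis, 1 of 4 tested was higher. Bcl2l11 encodes BIM, a BH3-only protein that binds all guardians. It stood at 14.3, 16.9, 17.0 and 23.8 CPM in PERK KO, against 10.5, 10.6, 9.21 and 7.68 CPM in Scramble. There was no overlap between the groups. Bcl2l11 rose by a log2 change of 0.92 ± 0.19 SE (edgeR adjusted p = 0.0102) and kept its call when any 1 library was left out, but not without both libraries numbered 4 (adjusted p = 0.0546). It lies on chromosome 2 (128126038 to 128162547, + strand). Bad had 25.8, 21.3, 22.2 and 20.6 CPM in PERK KO and 17.9, 21.3, 21.2 and 21.4 CPM in Scramble, and Bid 18.8 to 23.9 CPM in PERK KO and 18.1 to 21.7 CPM in Scramble. Bmf, which responds to loss of anchorage, had 5.59 to 8.87 CPM in PERK KO and 6.70 to 11 CPM in Scramble. None of Bad, Bid and Bmf was called (edgeR adjusted p = 0.58, 0.632 and 0.299), and their groups overlapped.

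Hrk, a BH3-only gene known from neurons, had 0 counts in all 4 PERK KO libraries, against 20, 15, 0 and 21 counts in Scramble. Against a floor of 3 counts over the PERK KO group, which is 0.0197 CPM, the pooled Scramble level was 13.5-fold higher, a bound that covers counting error only. Hrk was not tested in the filtered edgeR fit. In DESeq2 and in edgeR with no filter, where all 33 members were tested, it was not called. Scramble library 4 also had no count. Bik had 7, 0, 29 and 0 counts in PERK KO and 11, 6, 0 and 19 counts in Scramble.

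Ratios within a library do not depend on the scaling between libraries, and were described without a test. They are ratios of CPM not corrected for gene length, so only the difference between groups can be read. Bcl2 over Bcl2l11 was 3.19, 2.20, 2.49 and 2.20 in PERK KO libraries 1 to 4, against 5.54, 5.85, 5.52 and 8.27 in Scramble libraries 2 to 5. All PERK KO ratios were lower than all Scramble ratios. The same held for Mcl1 over Bcl2l11 (13.9 ± 2.75 in PERK KO, 23.2 ± 3.12 in Scramble; SD, n = 4 each) and for Bcl2l1 over Bcl2l11 (1.38 ± 0.121 in PERK KO, 2.42 ± 0.389 in Scramble). Bcl2l11, the shared denominator, was itself higher in every PERK KO library. Mcl1 and Bcl2l1 were not called, so their ratios largely restate the Bcl2l11 change. The ratios of single guardians were added to the planned ratio of guardians to BH3-only genes and effectors. Summed over the lists the groups overlapped, but Mcl1 and Bak1 made up most of the guardian and effector sums. Mcl1 averaged 248 CPM of a guardian sum of 328 CPM in PERK KO, and 218 of 312 CPM in Scramble. Bak1 averaged 183 CPM of an effector sum of 184 CPM in PERK KO, and 186 of 188 CPM in Scramble. The 5 guardians over the 6 BH3-only genes gave 4.75 ± 1.03 in PERK KO and 5.30 ± 0.438 in Scramble, and the guardians over BH3-only genes and effectors 1.32 ± 0.330 in PERK KO and 1.27 ± 0.133 in Scramble (SD, n = 4 each). The summed BH3-only level itself was 69.5, 67.7, 68.0 and 70.2 CPM in PERK KO, against 54.0, 62.1, 57.3 and 62.6 CPM in Scramble, without overlap. Its mean was 68.8 CPM in PERK KO and 59.0 CPM in Scramble. Bcl2l11 alone averaged 18.0 CPM in PERK KO and 9.50 CPM in Scramble, while Bad, Bid and Bmf each overlapped between groups. The separation of the sum thus largely restates the Bcl2l11 change.

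**Figure D3:**
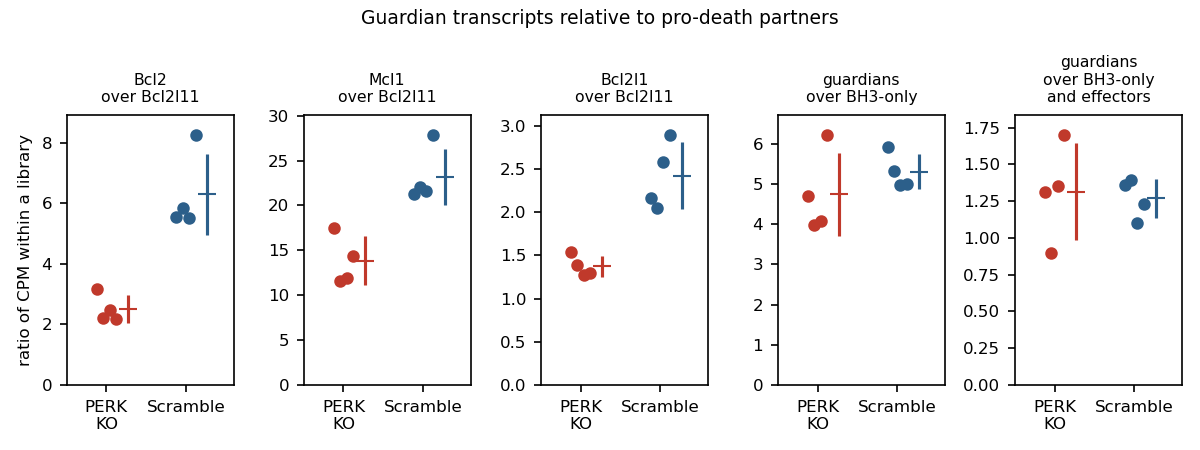
Ratios of CPM within each library (points) with the mean and SD over 4 libraries (bars), for 3 guardians over Bcl2l11 and for the summed guardians over the BH3-only genes, without and with the effectors. The PERK KO ratios over Bcl2l11 lie below all Scramble ratios, while the summed ratios overlap.

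The plot of ratios shows separate groups for the ratios over Bcl2l11 and overlapping groups for the ratios of summed lists. Bcl2a1b, a guardian of myeloid cells, was not tested, at 35, 1, 7 and 0 counts in PERK KO and 0, 8, 0 and 10 counts in Scramble. It has near-identical copies with which reads can be shared, and 49.1% of its exonic bases overlap Gm29094 on the same strand. Over 516 coding bases (GENCODE M21) Bcl2a1a and Bcl2a1b are 97.9% identical, Bcl2a1a and Bcl2a1d 98.6%, and Bcl2a1b and Bcl2a1d 98.8%, so counts of the 3 are uncertain. The 3 stretches of the first 90 coding bases (chromosome 9, coding strand, 5′ to 3′) hold 6 of the 12 positions that differ among the copies, in capitals, and show how few letters tell them apart.
Bcl2a1a: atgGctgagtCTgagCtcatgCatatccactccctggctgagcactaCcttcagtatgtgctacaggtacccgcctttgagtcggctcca
Bcl2a1b: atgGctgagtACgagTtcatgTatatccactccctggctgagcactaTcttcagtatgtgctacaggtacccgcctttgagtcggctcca
Bcl2a1d: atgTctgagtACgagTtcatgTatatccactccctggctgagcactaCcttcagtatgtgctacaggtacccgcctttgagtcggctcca

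Of 10 other BCL2 family genes tested, 3 were higher and none lower, and these were Bcl2a1a, Bcl2a1d and Pmaip1. Bcl2a1a had 0 counts in every Scramble library and 337 in PERK KO, at 1.31, 2.81, 0.581 and 4.11 CPM. Against a floor of 3 counts over the Scramble group it was at least 156-fold higher (edgeR adjusted p = 0.00381). Bcl2a1d was at 1.51, 1.46, 0.488 and 8.16 CPM in PERK KO, against 0.272, 0.0859, 0.152 and 0.445 CPM in Scramble. Ranges of the groups were separate, by a narrow margin. Bcl2a1d had a log2 change of 3.59 ± 0.95 SE (edgeR adjusted p = 0.0269), and lost its call without PERK KO library 4 (log2 change 2.26, adjusted p = 0.194) or Scramble library 2, 3 or 4 (adjusted p = 0.0725 to 0.0879). Pmaip1, which encodes the BH3-only protein NOXA, had 6.16, 5.46, 7.64 and 26.6 CPM in PERK KO, against 1.21, 2.15, 0.585 and 1.24 CPM in Scramble. Its groups did not overlap. The log2 change of Pmaip1 was 3.14 ± 0.58 SE (edgeR adjusted p = 0.00574), and 2.30 without PERK KO library 4.

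Of the 5 intrinsic caspase pathway members, 0 were called in edgeR, 1 of them (Casp12) having an unadjusted p under 0.05 and a call in DESeq2. Apaf1, the scaffold of the apoptosome, had 37.4 to 59.5 CPM in PERK KO and 50.1 to 61.2 CPM in Scramble, and Casp9, the caspase it activates, 7.98 to 21.3 CPM in PERK KO and 11.3 to 18.4 CPM in Scramble. Casp2 had 48.0 to 60.7 CPM in PERK KO and 55.4 to 64.2 CPM in Scramble, and the executioner gene Casp6 11.6 to 20.5 CPM in PERK KO and 11.6 to 16.5 CPM in Scramble. All 4 overlapped between groups (edgeR adjusted p = 0.318, 0.903, 0.32 and 0.876). Of 12 other genes of this step, Vdac2 was lower and none higher. Vdac2, an outer-membrane channel that binds BAK, fell to 147, 144, 136 and 174 CPM in PERK KO, against 218, 208, 208 and 199 CPM in Scramble, a log2 change of -0.47 ± 0.09 SE (edgeR adjusted p = 0.00657).

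Ripk1, the kinase at the junction of survival, apoptosis and necroptosis, stood at 60.3, 65.7, 53.4 and 86.4 CPM in PERK KO, against 47.5, 48.7, 44.7 and 53.1 CPM in Scramble. The groups did not overlap, by less than 1 CPM. Ripk1 rose by a log2 change of 0.45 ± 0.14 SE (edgeR adjusted p = 0.049). The call was lost without PERK KO library 1, 2 or 4, without Scramble library 2, 3, 4 or 5, and on library totals alone (adjusted p = 0.127), and without PERK KO library 4 the log2 change was 0.30. Its exons overlap those of Serpinb6a on the other strand over 2.89% of its exonic bases. Serpinb6a stood at 52.6 to 65.3 CPM in PERK KO and 42.4 to 59.8 CPM in Scramble, and the strand setting of the counting is not given in the sources used here. Shares were larger for Bad (Gpr137, 20.5%), Bak1 (Ggnbp1, 7.35 and 18.2%), Bid (Bcl2l13, 17.7%) and Pycard (Gm45205, 12.8%), also on the other strand. Bcl2l13 averaged 110 CPM in PERK KO and 109 CPM in Scramble, beside 21.4 and 19.5 CPM for Bid. Levels of these members may thus include reads of their partners. Casp8, the death receptor initiator, had 111, 95.9, 90.7 and 106 CPM in PERK KO, against 114, 114, 107 and 128 CPM in Scramble. Its groups overlapped, and its log2 change was -0.19 ± 0.09 SE (edgeR adjusted p = 0.218). Its inhibitor Cflar (FLIP) had 80.5 to 98.0 CPM in PERK KO and 82.8 to 96.2 CPM in Scramble (edgeR adjusted p = 0.892).

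Of 17 other death receptor genes tested, 3 were higher and none lower. Tnfaip3, which encodes the ubiquitin editor A20 that restrains NF-kappaB, had 18.4, 37.4, 35.4 and 69.8 CPM in PERK KO, against 11.5, 8.47, 7.82 and 10.7 CPM in Scramble. The groups did not overlap. Tnfaip3 rose by 2.06 ± 0.34 SE on the log2 scale (edgeR adjusted p = 0.00473) and was called in every setting tried. The receptor gene Tnfrsf1b rose by 2.92 ± 0.59 SE (edgeR adjusted p = 0.0103). The ligand gene Tnf had a log2 change of 3.52 ± 1.03 SE (edgeR adjusted p = 0.0498), lost without PERK KO library 2 or 4 or Scramble library 2, 3 or 5 (adjusted p = 0.0856 to 0.136), and was 2.74 without PERK KO library 4.

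Of the 3 inhibitor of apoptosis members, 0 were called in edgeR or DESeq2, and 0 had an unadjusted p under 0.05 in edgeR. Xiap, a direct caspase inhibitor, had 82.5 to 98.8 CPM in PERK KO and 88.3 to 103 CPM in Scramble, and Birc2, a ubiquitin ligase of RIPK1, 10.2 to 18.5 CPM in PERK KO and 11.5 to 16.1 CPM in Scramble (edgeR adjusted p = 0.501 and 0.759). Birc5 (survivin), which also serves chromosome segregation, had 82.4, 51.9, 54.9 and 52.2 CPM in PERK KO, against 58.7, 68.9, 70.1 and 68.2 CPM in Scramble. PERK KO library 1 stood above every Scramble library and the other 3 below them, and Birc5 was not called (log2 change -0.14 ± 0.15 SE, edgeR adjusted p = 0.628). Of 10 genes of survivin partners and mitosis, 2 were lower and none higher. The mitotic kinase gene Plk1 was at 90.8, 93.3, 79.7 and 97.4 CPM in PERK KO, against 128, 128, 134 and 135 CPM in Scramble (log2 change -0.54 ± 0.08 SE, edgeR adjusted p = 0.00277). The cyclin gene Ccnb1 had a log2 change of -0.39 ± 0.11 SE (edgeR adjusted p = 0.0377) and lost its call without PERK KO library 2 or 3 or Scramble library 2, 3, 4 or 5 (adjusted p = 0.0589 to 0.103).

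Of 5 other inhibitor of apoptosis genes tested, 3 were higher and none lower. Birc3, a ubiquitin ligase induced by NF-kappaB, rose by 1.22 ± 0.25 SE on the log2 scale (edgeR adjusted p = 0.00962). Naip2 rose by 1.93 ± 0.32 SE (edgeR adjusted p = 0.0033). Naip6 rose by 3.31 ± 0.55 SE (edgeR adjusted p = 0.00341) and by 2.65 without PERK KO library 4. The Naip genes are a family of close copies, so their counts are uncertain, and in mice members of the family act as inflammasome sensors.

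Pdcd6ip, the gene of the paraptosis inhibitor ALIX, was not called. It stood at 249, 300, 231 and 269 CPM in PERK KO, against 279, 274, 270 and 276 CPM in Scramble. The PERK KO libraries spread on both sides of the tight Scramble values. Its log2 change was -0.07 ± 0.09 SE (edgeR adjusted p = 0.707), and per kilobase it ranked 3 of 33 in PERK KO and 5 in Scramble. Of 17 ALIX partners and genes of the ESCRT membrane-scission machinery, 1 was higher and 1 lower. The partner gene Sdcbp (syntenin) was at 327, 269, 299 and 320 CPM in PERK KO, against 389, 404, 395 and 440 CPM in Scramble. The groups did not overlap, and Sdcbp fell by 0.42 in log2 units (± 0.09 SE, edgeR adjusted p = 0.00887). Vps28, a subunit of an ESCRT complex, rose by 0.41 ± 0.09 SE (edgeR adjusted p = 0.014) and lost its call without Scramble library 2, 3 or 4 (adjusted p = 0.0535 to 0.0635).

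Gpx4, which detoxifies lipid peroxides and so restrains ferroptosis, had 56.5, 38.7, 61.8 and 66.1 CPM in PERK KO, against 77.9, 70.2, 75.9 and 76.6 CPM in Scramble. Every PERK KO library was below every Scramble library, and PERK KO library 2, with the highest mitochondrial share, was the lowest. Gpx4 was not called (log2 change -0.43 ± 0.14 SE, edgeR adjusted p = 0.0697), and without PERK KO library 4 it was called lower (adjusted p = 0.0399). The part of the mitochondrial share in these values was not tested. Of 16 other ferroptosis genes tested, 1 was higher and 1 lower. The ferritin light chain gene Ftl1 was at 566, 489, 699 and 722 CPM in PERK KO, against 1224, 1145, 1129 and 974 CPM in Scramble, a log2 change of -0.85 ± 0.13 SE (edgeR adjusted p = 0.00227). The lipoxygenase gene Alox5, known from myeloid and mast cells, had a log2 change of 2.36 ± 0.66 SE (edgeR adjusted p = 0.0347) and lost its call without PERK KO library 3 or 4 or Scramble library 3, 4 or 5 (adjusted p = 0.065 to 0.0989).

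**Figure D4:**
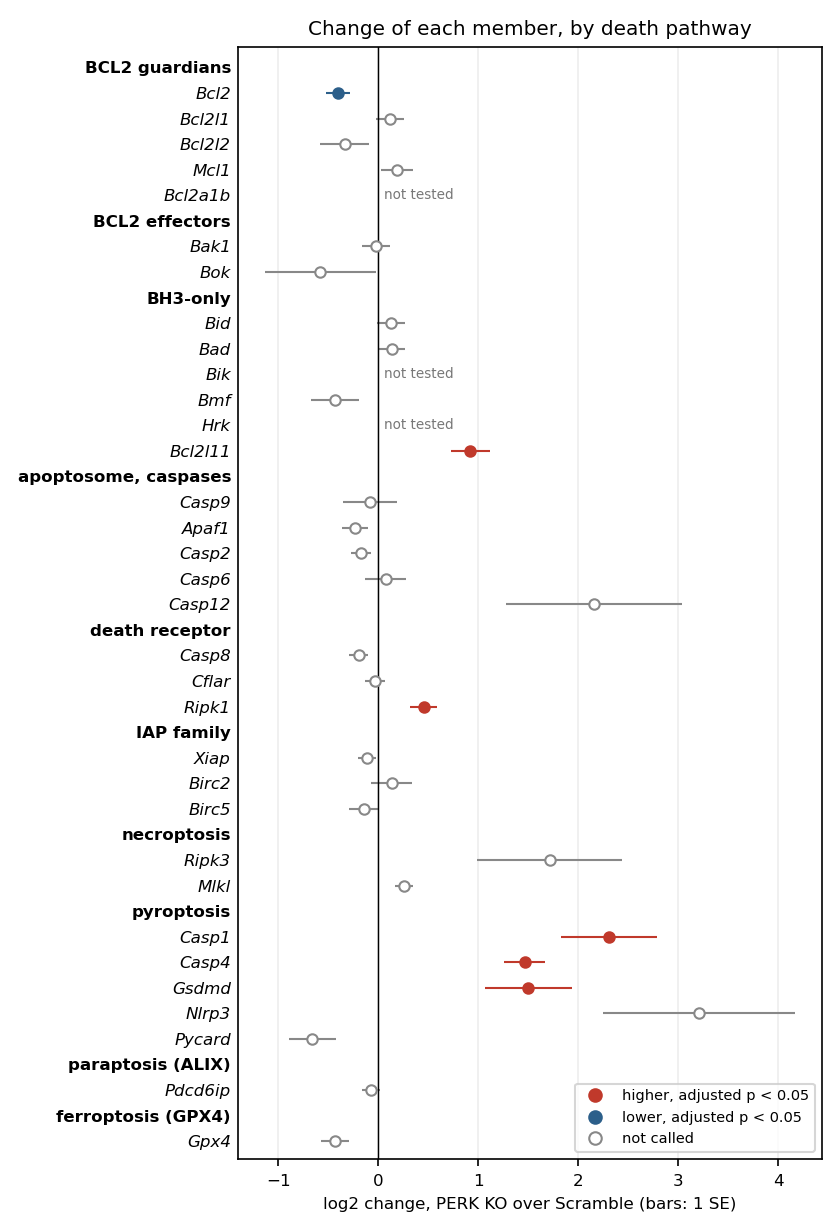
Log2 change of each tested member, PERK KO over Scramble, with 1 SE either side, grouped by death pathway; filled points passed an adjusted p under 0.05 in edgeR and open points did not. The pyroptosis genes other than Pycard lie at 1.46 to 3.21, while the BCL2 family and intrinsic caspase genes lie between -0.58 and 0.19 apart from Bcl2l11 and Casp12.

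The plot of changes sets the size of each change beside its error. The widest errors belong to Nlrp3, Casp12 and Ripk3, genes at low levels whose changes were large and not called. Counts alone do not order the errors. Nlrp3, at 1126 counts in PERK KO and 173 in Scramble, had an SE of 0.96. Casp1, at 987 counts in PERK KO and 269 in Scramble, had an SE of 0.48. The narrowest errors belong to abundant genes such as Pdcd6ip, Xiap and Mlkl, but the abundant Bak1 and Mcl1 had wider ones (SE 0.14 and 0.16).

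**Figure D5:**
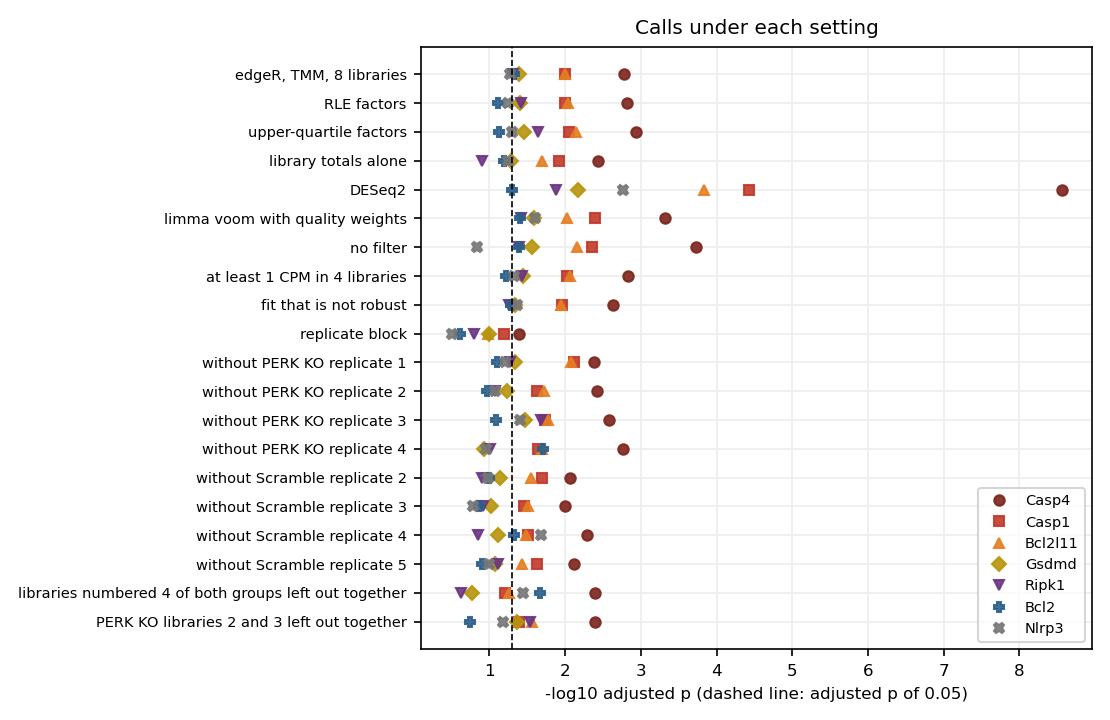
Adjusted p of the 6 called members and of Nlrp3 (as -log10, further right is smaller) under the fit of 8 libraries and each of 19 other settings, with a dashed line at 0.05. Casp4 stays right of the line in every setting, and Casp1 and Bcl2l11 in all but the replicate block and the omission of both libraries numbered 4.

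The plot of calls under each setting separates the 6 called members. Casp4, Casp1 and Bcl2l11 lie well past the line in the fit of 8 libraries, whereas Gsdmd, Ripk1 and Bcl2 lie near it with Nlrp3.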

How the data were processed

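Gene expression was measured in 4 PERK KO and 4 Scramble libraries. Per the labels' protocols, 100 ng of RNA per sample went into stranded cDNA libraries that were sequenced as read pairs of 105 bases. Per the submitters' processing notes, the tools were STAR 2.5.3a, bcl2fastq, DESeq2 1.30.1 and HTSeq 0.6.1 on mm10, without settings. The authors deposited raw counts, whole numbers per gene and library, and a normalized table whose signal is the count divided by 1 factor per library. The signal table served only to check the counts.

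Members were matched by symbol. The members and lists were chosen with earlier results of these data known. All members, and from each other list up to 4 called genes of smallest p, were to be named. Positions came from GENCODE M21, in which all 55450 identifiers were found, and upstream windows from RefSeq GRCm38.p6. Genes were filtered with filterByExpr by group, scaled with TMM factors (0.863 to 1.03) and tested with the robust quasi-likelihood test of edgeR 4.0.16 in R 4.3.3. Replicates varied by a biological coefficient of 46.3%. Levels in CPM use the TMM factors, ± is the SD or the SE as named, and 3 counts correspond to 0.0515 to 0.1 CPM per library, a floor that covers counting error only. On simulated data for this comparison, over 16662 genes, 30, 52, 82 and 82% of genes changed 1.5-, 2-, 4- and 8-fold were recovered. The changed genes, 50 per fold, were drawn from those with a mean above 1 CPM, so recovery at lower levels was not measured. Alternatives used limma 3.58.1 (voom with quality weights), DESeq2 1.42.0, other scalings and filters, a fit that is not robust, a replicate block and the omission of libraries. Figures were drawn with matplotlib 3.10.9 in Python 3.11.15.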

Additional observations from a re-analysis of the deposited data

Results flagged for a closer look

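In 6 of 65 groups of 4 libraries of the members, the highest or lowest library stood apart from the other 3 by a gap above Dixon's critical value, which chance does in about 1 group in 20. Bcl2a1b was at 1.17 CPM (35 counts) in PERK KO library 1, against 0 to 0.163 CPM in the other PERK KO libraries. Bok was at 2.65 CPM (114 counts) in PERK KO library 3, against 0.962 to 1.02 CPM in the others. Birc5 was at 82.4 CPM in PERK KO library 1, against 51.9 to 54.9 CPM in the others of PERK KO, and at 58.7 CPM in Scramble library 2, against 68.2 to 70.1 CPM in the others of Scramble. Bad was at 17.9 CPM in Scramble library 2, against 21.2 to 21.4 CPM in the others. Gsdmd was at 1.10 CPM (64 counts) in Scramble library 3, against 3.10 to 3.39 CPM in the others, and the lowest PERK KO library stood at 4.71 CPM.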

How the results depend on the processing

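Casp4 was called in all 19 other settings. Members called lower numbered 0 under RLE and upper-quartile factors, DESeq2, the stricter filter of 1 CPM in 4 libraries, the fit that is not robust and the replicate block, and 2 under voom and no filter. Members called higher numbered 3 on library totals and 8 in DESeq2. Genes called lower numbered 653 under upper-quartile factors, where 68.7% of calls were higher, beside 55.5% under TMM and 47.7% on library totals, and genes called higher numbered 2069 in DESeq2. Leaving out each library gave 1078 to 2616 genes (639 to 1372 higher, 439 to 1244 lower) and 3 to 6 members (3 to 6 higher, 0 to 2 lower). Leaving out both libraries numbered 4, chosen after seeing the data, gave 1279 genes (779 higher, 500 lower) and 3 members (2 higher). Leaving out PERK KO libraries 2 and 3, also chosen after seeing the data, gave 7 members (6 higher, 1 lower), with Mcl1 (0.45, adjusted p = 0.0455) and Pycard (-0.82, adjusted p = 0.0414) called and Bcl2 not. A replicate block called 208 genes (127 higher, 81 lower) and 1 member (1 higher, Casp4). PERK KO library 1 and Scramble library 5 have no same-numbered partner in that block. Deviations of same-numbered libraries correlated at -0.00906, 0.0982 and -0.204, and those of other library pairs at -0.094 to 0.145. So few values cannot show whether the numbers pair the samples. Signs turned for 7 members that were not called with all 8 libraries; of these, Mcl1 was called in 1 other setting. Bak1 was 0.0187 under RLE, 0.0314 under upper-quartile factors, 0.0186 in DESeq2, 0.00742 under the stricter filter and 0.00417 without both libraries 4, and -0.153 to 0.0955 without each library. Cflar was 0.00931, 0.0281 and 0.00906 under RLE, upper-quartile factors and DESeq2, 0.0186 without both libraries 4, and -0.0833 to 0.0201 without each library. Casp6 was -0.0434 under voom, -0.168 without both libraries 4, and -0.128 to 0.186 without each library. Casp9 was -0.366 to 0.122 without each library and 0.309 without PERK KO libraries 2 and 3, where Birc5 was 0.0159. Mcl1 was -0.0516 without both libraries 4 and -0.0122 to 0.296 without each library, and Bcl2l1 -0.0181 to 0.177. The cause of these moves was not tested. Members at 0 or a few counts, such as Hrk and Bik, are limited by depth. For Bcl2a1b, reads may also be lost to its near-identical copies and to the overlapping Gm29094.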
